A study of Bos taurus with 6 samples.

Results

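The S100 proteins are a family of small EF-hand calcium sensors, and the genes for S100A1, S100A2, S100A4, S100A6, S100A10, S100A11, S100A13, S100A14, S100A16 and S100B were followed here in bovine rumen epithelial primary cells (REPC) with and without butyrate. The genes were taken by name from gene-level FPKM (fragments scaled to transcript length and to the mapped fragments of the library), and 9 of the 10 names had a row among the 32183 listed rows. No row carried the name S100A6, so this gene was not analysed here. The 10 names were chosen with the response of these same cultures known, so their levels and fold changes are given as a description and without p-values. REPC were grown from a Holstein bull calf that was 2 weeks old and had received milk replacer and no other feed, so all cultures go back to 1 animal. The butyrate group comprised 3 cultures that received 5 mM butyrate for 24 h, and the control group 3 cultures without it. The labels number the cultures 1 to 3 within each group but do not say whether they were isolated separately, so the spread between them may be partly technical. Butyrate is a short-chain fatty acid made by rumen microbes, a fuel of the rumen wall and an inhibitor of histone deacetylases.

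Most S100 proteins form dimers that open a hydrophobic surface when calcium binds, and with this surface they hold target proteins such as annexins, myosin and ubiquitin ligase adaptors. Some act inside the cell on the membrane and the cytoskeleton, whereas others are released and bind receptors such as AGER, the receptor for advanced glycation end products. Many S100 genes lie side by side in the epidermal differentiation region, where genes of the cornified layer of stratified epithelia, to which the rumen wall belongs, are also found.

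The abundance of the S100 transcripts differed by several orders of magnitude. In control REPC, mean FPKM fell in the order S100A11, S100A2, S100A4, S100A10, S100A16, S100A14, S100A13, S100B and S100A1, and the same order was found with butyrate. S100A11 was 7th of all 32183 rows by mean FPKM in control and 11th with butyrate, S100A2 was 13th and 32nd, S100A4 was 53rd and 39th, and S100A10 was 73rd and 57th. The ranges of neighbours in this order did not overlap in either group except for S100A2 and S100A4 in butyrate, although S100A2 was above S100A4 within each of the 3 butyrate cultures. The 9 transcripts summed to an FPKM of 9563 to 9645 in control and of 8367 to 8687 with butyrate. The FPKM of all genes also summed to less with butyrate, between 619401 and 629037 against 678035 to 681912, and the share of the 9 genes in that total was 1.41% in each control culture and 1.40%, 1.34% and 1.34% in the butyrate cultures.

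**Figure D1:**
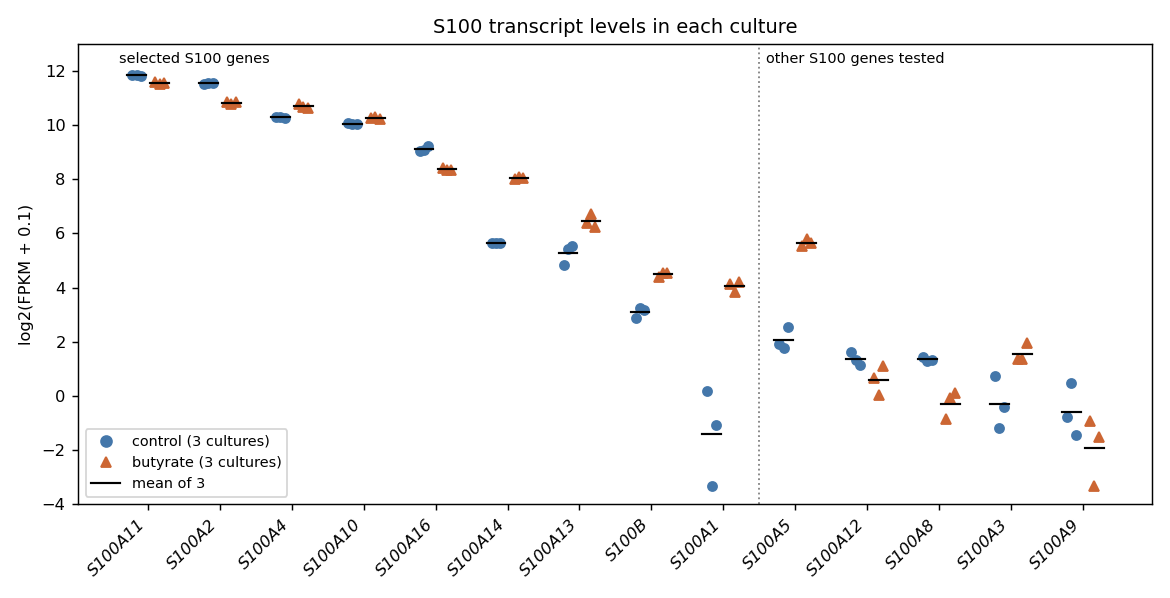
Level of each S100 gene in each culture as log2(FPKM + 0.1), with circles for the 3 control cultures, triangles for the 3 butyrate cultures and a line at the mean of each group. The 9 selected genes stand left of the dotted line in order of their control level, from S100A11 at a mean FPKM of 3655 to S100A1 at 0.466, and the control and butyrate points of each of these 9 do not overlap, whereas those of S100A9 on the right do.

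In all 9 genes the 3 butyrate values lay on one side of the 3 control values, 6 higher and 3 lower. Of the 15813 genes tested, 36.1% did not overlap with butyrate higher and 28.9% with butyrate lower, together 65.0%. By limma with a Benjamini-Hochberg adjusted p under 0.05, the same 6 genes were called higher and 3 lower, where 32.5% of all tested genes were called higher and 25.9% lower, and because the genes were chosen by this contrast nothing is read from the counts. The thresholds of the study, a log2 fold change beyond 2 with a Bonferroni-adjusted p under 0.05, were applied here to the limma fit. They were passed by S100A14 alone, in a background of 2.46% higher and 1.51% lower, together 3.97%. The study tested its genes with Cufflinks, so these are not the calls of the study. In the fragments implied by the deposited bounds, described below, the log2 ratio of S100A14 was 1.76 and so under the cut of 2. The median log2 fold change (butyrate minus control) was 0.41 over the 9 genes and 0.10 over all tested genes, and the median size without regard to sign was 0.76 and 0.57. In bulk RNA, fewer cells that express a gene and less of its RNA per cell cannot be told apart.

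The size of the difference went with the level in control. The 5 genes with a mean control FPKM above 100 (S100A11, S100A2, S100A4, S100A10 and S100A16) all differed by less than 1 on the log2 scale, and 3 of them were lower with butyrate. The 4 genes under 100 (S100A14, S100A13, S100B and S100A1) were all higher with butyrate by more than 1. Of all tested genes, 29.2% differed by at least 1 in either direction. The control level and the fold change share the control cultures, so this is an account of the 9 genes and no test.

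S100A10 and S100A11 are the family's annexin partners. S100A10 has lost the ability to bind calcium, stays in the open form and joins ANXA2 in a membrane complex that also captures plasminogen activator, whereas S100A11 binds ANXA1 and is a substrate of transglutaminases in the cornified envelope. S100A10, on chromosome 3 from 18799612 to 18810545, had an FPKM of 1073, 1046 and 1042 in control cultures 1 to 3 and of 1239.9, 1278 and 1205 in butyrate cultures 1 to 3. Every butyrate culture was above every control culture, but the gap was small next to the level. The log2 fold change was 0.24 ± 0.03 (SE). S100A11, on chromosome 3 from 18768799 to 18770271, had an FPKM of 3659, 3702 and 3604 in control and of 3109.8, 2975 and 3044 with butyrate. Here the butyrate cultures were the lower ones, again without overlap, with a log2 fold change of -0.26 ± 0.03 (SE). Within each culture, S100A11 was 3.41, 3.54 and 3.46 times S100A10 in control and 2.51, 2.33 and 2.53 times with butyrate. A scaling factor common to all genes of a culture does not change this ratio.

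S100A2 and S100A4 lie close together on chromosome 3, with S100A3 between them, and differed in opposite directions. S100A2 is a mostly nuclear S100 protein of basal epithelial cells and a target of TP63, and S100A4 binds the heavy chain of non-muscle myosin and is known from motile and mesenchymal cells. S100A2, on chromosome 3 from 16869284 to 16872613, had an FPKM of 2943, 3009.6 and 2982 in control and of 1855, 1749 and 1850.4 with butyrate. The control cultures lay within a narrow band far above the butyrate cultures, with a mean of 2978 ± 33.7 (SD, n = 3) against 1818 ± 59.7 (SD, n = 3). This was a log2 fold change of -0.71 ± 0.03 (SE). S100A4, on chromosome 3 from 16886283 to 16888570, had an FPKM of 1266, 1247 and 1243 in control and of 1767, 1631 and 1608 with butyrate. Its butyrate cultures were all higher, with a log2 fold change of 0.41 ± 0.04 (SE), and butyrate culture 1 was the highest of the 6. The ratio of S100A2 to S100A4 was 2.32, 2.41 and 2.40 in the control cultures and 1.05, 1.07 and 1.15 in the butyrate cultures, so the transcripts were close to equal with butyrate.

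**Figure D2:**
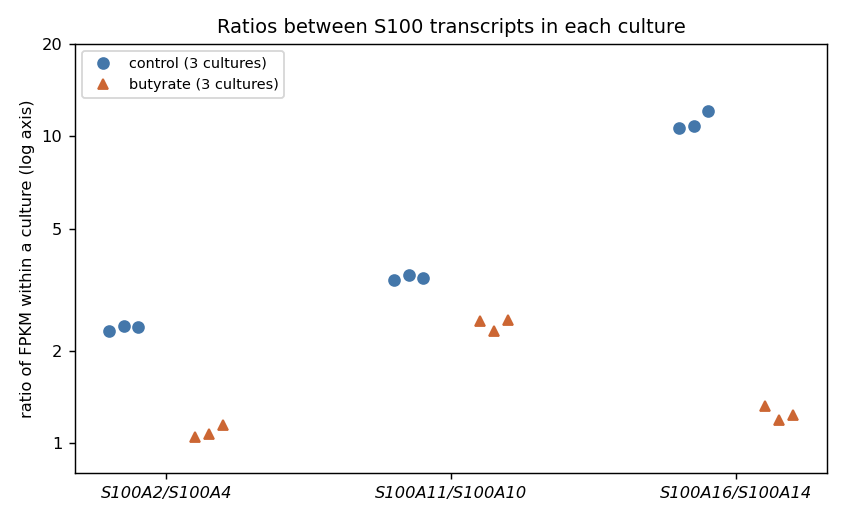
Ratio of the FPKM of 2 S100 genes within a culture, on a log axis, for 3 pairs, with circles for control and triangles for butyrate cultures. In each pair the butyrate cultures lie below the control cultures, with S100A16 to S100A14 going from between 10.6 and 12.1 to between 1.19 and 1.32. The size of this last change holds for FPKM only. In the fragments implied by the deposited bounds, described below, the log2 ratios of butyrate to control were -0.16 for S100A16 and 1.76 for S100A14, against -0.76 and 2.40 by FPKM.

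S100A14 and S100A16 are neighbours with 1063 bases between them, and both are found in epithelia, where S100A14 has been tied to cell adhesion and receptor signalling. S100A14, on chromosome 3 from 16826967 to 16829418, had an FPKM of 50.3, 49.8 and 49.7 in control and of 255, 269.8 and 266 with butyrate. The control cultures differed among themselves by less than 1 FPKM, and every butyrate culture was more than 5 times higher. The log2 fold change was 2.40 ± 0.04 (SE). S100A16, on chromosome 3 from 16830482 to 16837429, had an FPKM of 534, 539 and 599 in control and of 338, 322 and 329 with butyrate. All butyrate cultures were lower, with a log2 fold change of -0.76 ± 0.05 (SE). Control culture 3 was the highest of the 6 and accounted for most of the spread in control.

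Both of these differences were smaller in the fragments implied by the deposited bounds than in FPKM. Read as 2 standard errors, the bounds imply a number of fragments behind each value, and for S100A16 this number was 2016 to 2122 in control and 1719 to 1915 with butyrate, a log2 ratio, relative to the implied total of each culture, of -0.16 against -0.76 by FPKM. For S100A14 the implied number was 348 to 379 in control and 1168 to 1270.0 with butyrate, a log2 ratio of 1.76 against 2.40. The fragments per unit of FPKM were 3.54 to 3.81 in control and 5.23 to 5.96 with butyrate for S100A16, and 6.99 to 7.53 and 4.55 to 4.71 for S100A14, so they moved in opposite directions in these neighbours. Over the 11030 genes with at least 10 implied fragments in every culture, the median absolute difference between the 2 log2 ratios was 0.13, and 0.499% of the genes had one as large as that of S100A14 and 0.635% one as large as that of S100A16. In S100A2, S100A4, S100A10, S100A11, S100A13 and S100B it was under 0.10. Both directions held in implied fragments, and the part of transcript models or read assignment in the FPKM values was not tested.

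S100A13, S100A1 and S100B were the scarcest of the 9. S100A13 is needed for the export of FGF1, which has no signal peptide, and lies 418 bases from S100A1, a regulator of calcium handling known best from heart and skeletal muscle. S100A13, on chromosome 3 from 16817377 to 16824126, had an FPKM of 28.7, 43.0 and 46.0 in control and of 84.1, 105 and 75.3 with butyrate. The butyrate cultures were all higher, but the spread was wide for the level, with a mean of 39.2 ± 9.23 (SD, n = 3) against 88.2 ± 15.3 (SD, n = 3). Its log2 fold change was 1.18 ± 0.18 (SE). The deposited bounds of single cultures lay 13.5% to 24.9% from the value, next to a coefficient of variation between cultures of 23.6% in control and 17.3% with butyrate.

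S100A1, on chromosome 3 from 16812602 to 16816958, went from the edge of detection to a clear level. Its FPKM was 1.03, 0 and 0.371 in control and 17.3, 14.2 and 18.4 with butyrate. The bounds imply fewer than 2 fragments in each control culture and 58 to 62 in each butyrate culture. The log2 fold change of 5.47 ± 0.73 (SE) was the largest of the 9, and it went from 3.64 with a pseudocount of 1 to 6.71 with one of 0.01 because the controls were near 0. By size, 3.86% of all tested genes had a log2 fold change of at least 3 in either direction. Its rank among all rows went from 12654 to 4802.

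S100B, the only one of the 9 outside chromosome 3, is a glial protein that is also released and binds AGER. It lies on chromosome 1 from 148009629 to 148016981. Its FPKM was 7.30, 9.47 and 9.01 in control and 20.9, 23.2 and 23.1 with butyrate. The groups were far apart relative to their spread, averaging 8.59 ± 1.14 (SD, n = 3) in control and 22.4 ± 1.31 (SD, n = 3) with butyrate, a log2 fold change of 1.38 ± 0.11 (SE). Of 7 glial and Schwann cell markers, 4 were high enough to be tested and 2 of these were called higher, beside 32.5% of all tested genes. The 7 had a summed FPKM of 12.6 to 16.2 in control and 14.2 to 17.8 with butyrate, most of it from 1 gene whose groups overlapped. The 2 that were higher, both named after their values were seen, were NGFR and ERBB3. NGFR went from a mean FPKM of 0.0561 to 1.94 and ERBB3 from 0.108 to 1.53 (limma, adjusted p = 6.29e-05 for ERBB3). The control mean of NGFR was below the filter of 0.1, so NGFR was tested through the butyrate cultures only and could only be called higher. The part of both genes in the level of S100B was not tested.

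By share of the summed FPKM of the 9 genes, S100A11 went from 38.1% in control to 35.8% with butyrate and S100A2 from 31.0% to 21.4%. S100A4 went from 13.05% to 19.65% and S100A10 from 10.98% to 14.6%. S100A16 went from 5.81% to 3.88%, and the 4 scarce genes stayed small, S100A14 with 3.104% and S100A13 with 1.04% being the largest of them with butyrate. The sum of these 9 was thus mainly S100A11 and S100A2 in control and was spread more evenly over S100A11, S100A2, S100A4 and S100A10 with butyrate.

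Of 10 further S100 names, 8 had a row and 5 were high enough to be tested. Of these, 2 were called higher and 2 lower, beside 32.5% and 25.9% of all tested genes. S100A5, which lies between S100A4 and the S100A7 row on chromosome 3 from 16890999 to 16894705, is a calcium-, zinc- and copper-binding member with a restricted expression. It had an FPKM of 3.67, 3.28 and 5.76 in control and of 45.7, 55.2 and 49.8 with butyrate. It rose in all 3 butyrate cultures, with a log2 fold change of 3.58 ± 0.19 (SE; limma, Benjamini-Hochberg adjusted p = 1.07e-06), and it also passed the thresholds of the study. S100A3, a cysteine-rich protein of the hair cuticle between S100A2 and S100A4, rose from 1.55, 0.334 and 0.644 to 2.47, 2.44 and 3.74 FPKM, with a log2 fold change of 1.85 ± 0.45 (SE; limma, adjusted p = 0.00697). The bounds imply 1 to 5 fragments for it in the control cultures.

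S100A8, S100A9 and S100A12 form the calgranulin group, which neutrophils and monocytes carry in large amounts and inflamed epithelium can induce. S100A8 fell from 2.61, 2.37 and 2.38 to 0.452, 0.833 and 0.973 FPKM, with a log2 fold change of -1.64 ± 0.28 (SE; limma, adjusted p = 0.000971), on 5 to 6 implied fragments in control. S100A12 had 2.98, 2.41 and 2.08 FPKM in control and 1.46, 0.922 and 2.07 with butyrate, and its adjusted p of 0.0496 (limma, log2 fold change -0.76) was above 0.05 in 10 alternatives, at most 0.148 without control replicate 1. S100A9 had 0.477, 1.30 and 0.267 FPKM in control and 0.428, 0 and 0.244 with butyrate, with overlapping groups (limma, adjusted p = 0.133). All 3 were thus below an FPKM of 3, against a mean of 3655 for S100A11 in control. Of 8 immune markers 3 were tested and 2 were called higher with butyrate, beside 32.5% of all tested genes. The 8 had a summed FPKM of 6.59 to 7.89 in control and 12.4 to 14.3 with butyrate, and PTPRC and LYZ were at 0. S100A7, S100G and S100Z were listed at 0 in every culture.

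Of the 9 selected genes with a row, 8 lay on chromosome 3, and with 6 other S100 genes they made a stretch of 14 S100 genes from 16812602 to 18810545, a span of 1998 kb. Their order was S100A1, S100A13, S100A14, S100A16, S100A2, S100A3, S100A4, S100A5, S100A7, S100A8, S100A12, S100A9, S100A11 and S100A10. Along this order the sign of the difference changed several times, since S100A1, S100A13 and S100A14 were higher with butyrate, S100A16 and S100A2 lower, S100A3, S100A4 and S100A5 higher, S100A8 and S100A12 lower, S100A11 lower and S100A10 higher. Within the stretch and 100 kb on either side lay 60 other genes, of which 35 were at 0 in all cultures and 17 were tested. Of these 17, 4 were called higher and 3 lower, where all tested genes had 32.5% and 25.9%, their median was 0.39 on the log2 scale, and 0 passed the thresholds of the study. CRCT1, a cysteine-rich gene of the late cornified envelope group, rose from a mean FPKM of 0.339 to 3.88, a log2 fold change of 3.55 ± 0.65 (SE; limma, adjusted p = 0.00154). NPR1, the natriuretic peptide receptor, rose from 0.268 to 2.06, a log2 fold change of 2.56 (limma, adjusted p = 4.90e-05). PGLYRP4, a peptidoglycan recognition protein, was listed at 0 in all control cultures and at 0.567, 0.0679 and 0.417 FPKM with butyrate. It was thus tested through the butyrate cultures only. An unnamed row between S100A5 and S100A7, LOC618256, had a mean FPKM of 3.13 in control and 5.04 with butyrate (limma, adjusted p = 0.0612).

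**Figure D3:**
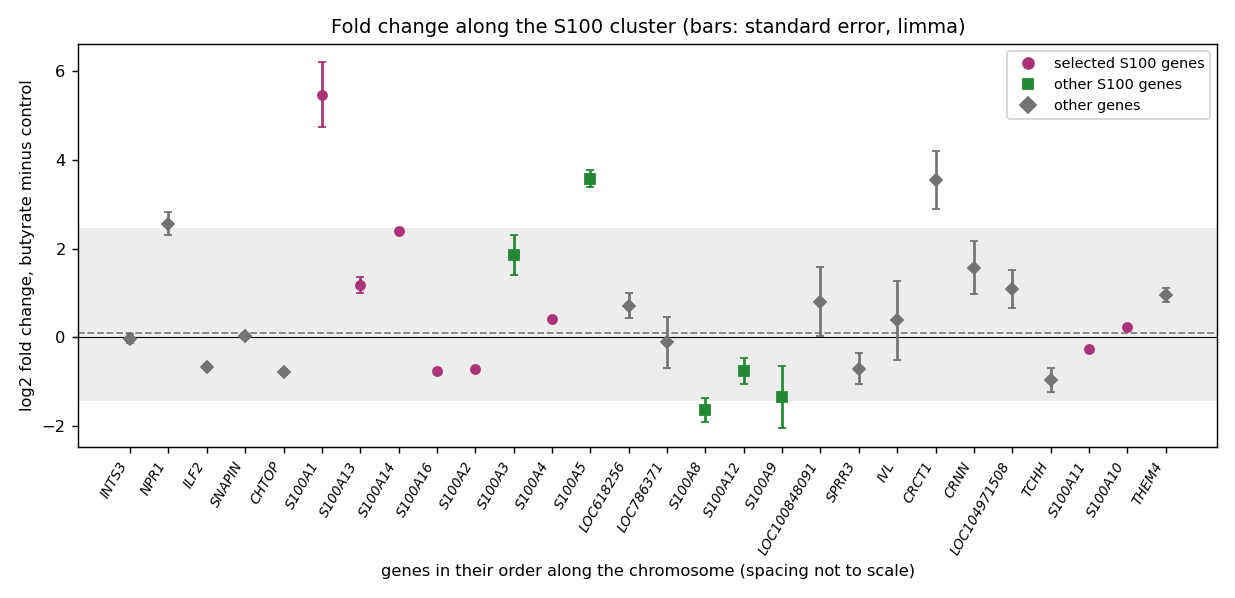
Log2 fold change (butyrate minus control, with standard error) of each tested gene in its order along chromosome 3, circles for the selected S100 genes, squares for other S100 genes and diamonds for other genes. The dashed line is the median of all tested genes at 0.10, the grey band runs from their 5th to their 95th percentile, -1.40 to 2.44, and S100A1, S100A5, NPR1 and CRCT1 lie above it while S100A8 lies below it. PGLYRP4 and LOC101904767, each at 0 throughout 1 group, are not drawn.

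The fused S100 proteins, in which an S100 domain precedes long repeats, and the cornified envelope genes share this region. Of 7 fused names, 6 had a row and 2 were tested, and TCHH, trichohyalin, fell from 1.27, 1.89 and 2.02 to 0.857, 0.636 and 1.03 FPKM (limma, log2 fold change -0.96, adjusted p = 0.0141), a call that was lost without control replicate 3 (limma, adjusted p = 0.0529). CRNN, cornulin, the other one tested and named after its values were seen, had 0.322, 0 and 0.254 FPKM in control and 0.605, 1.05 and 0.382 with butyrate (limma, log2 fold change 1.57, adjusted p = 0.0506). FLG, HRNR and TCHHL1 were listed at 0. Of 22 cornified envelope and cross-linking names, 13 had a row and 8 were tested, of which 5 were called higher and 0 lower, against 32.5% and 25.9% of all tested genes. PGLYRP4, the peptidoglycan recognition gene of this region, was 1 of the 5. It was at 0 in every control culture, so it was tested through the butyrate cultures only and could only be called higher. Its call was lost with quantile normalization (limma, adjusted p = 0.118). The 3 not called, named after their values were seen, were SPRR3, CSTA and IVL, all low and with overlapping groups. Their log2 fold changes were -0.70, 0.61 and 0.38 (limma, adjusted p = 0.114, 0.644 and 0.734). The plakin scaffold genes PPL and EVPL rose, from a mean of 11.03 ± 1.37 to 26.7 ± 4.41 FPKM (SD, n = 3; limma, log2 fold change 1.26, adjusted p = 6.84e-05) and from 1.96 ± 0.0273 to 4.58 ± 0.197 FPKM (SD, n = 3; limma, log2 fold change 1.19, adjusted p = 9.71e-05). TGM1, a transglutaminase that cross-links S100A11 into the envelope, went from 70.2 to 81.6 FPKM (limma, log2 fold change 0.22, adjusted p = 0.00859), and this call was lost when each culture was centred on its median. TGM3 stayed below an FPKM of 1 in every culture (limma, log2 fold change 1.45, adjusted p = 0.0293), a call that was lost in 5 alternatives.

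Of 27 binding partners and receptors of S100 proteins, all had a row and 22 were tested, of which 7 were called higher, 6 lower and 9 neither, beside 32.5% and 25.9% of all tested genes called higher and lower. The annexin partners were abundant and moved little. ANXA2, the partner of S100A10, went from 2949 ± 56.1 to 3200.1 ± 50.5 FPKM (SD, n = 3; limma, log2 fold change 0.12, adjusted p = 0.00899), about the shift of the median gene, and this call was lost with median centring and without the trend. ANXA1, the partner of S100A11, had 1314 ± 35.6 and 1323 ± 74.2 FPKM (SD, n = 3; limma, log2 fold change 0.01 ± 0.05 SE, adjusted p = 0.878), and its sign turned with other scalings. ANXA6 and MYH9, the myosin bound by S100A4, had log2 fold changes of 0.01 and -0.07 with standard errors of 0.07 and 0.13 (limma, adjusted p = 0.874 and 0.663). ANXA11 and AHNAK, the giant scaffold of the S100A10 and ANXA2 complex, had log2 fold changes of 0.25 and 0.44 (limma, adjusted p = 0.00931 and 0.0197), and neither call held with median centring.

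Larger differences were found in other partners. PLAT, tissue plasminogen activator, which the S100A10 complex binds at the cell surface, rose from 589, 638 and 641 to 1325, 1367 and 1308 FPKM (limma, log2 fold change 1.10 ± 0.04 SE, adjusted p = 1.91e-07). CACYBP, the ubiquitin ligase adaptor named for its binding to S100A6, fell from 130.3, 129 and 137 to 69.6, 79.2 and 77.6 FPKM (limma, log2 fold change -0.81 ± 0.06 SE, adjusted p = 6.94e-06). ATP2A2, the calcium pump of the endoplasmic reticulum that S100A1 regulates in muscle, fell from 46.7 ± 0.318 to 25.7 ± 1.68 FPKM (SD, n = 3; limma, log2 fold change -0.86, adjusted p = 7.46e-06). AGER, the receptor for released S100 proteins, rose from 0.738, 1.25 and 0.783 to 2.45, 3.17 and 1.93 FPKM (limma, log2 fold change 1.36, adjusted p = 0.00247). Its mean of 2.52 with butyrate was below the 22.4 of S100B. It was above the means of S100A12, S100A8 and S100A9, which were 1.48, 0.753 and 0.224 with butyrate.

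**Figure D4:**
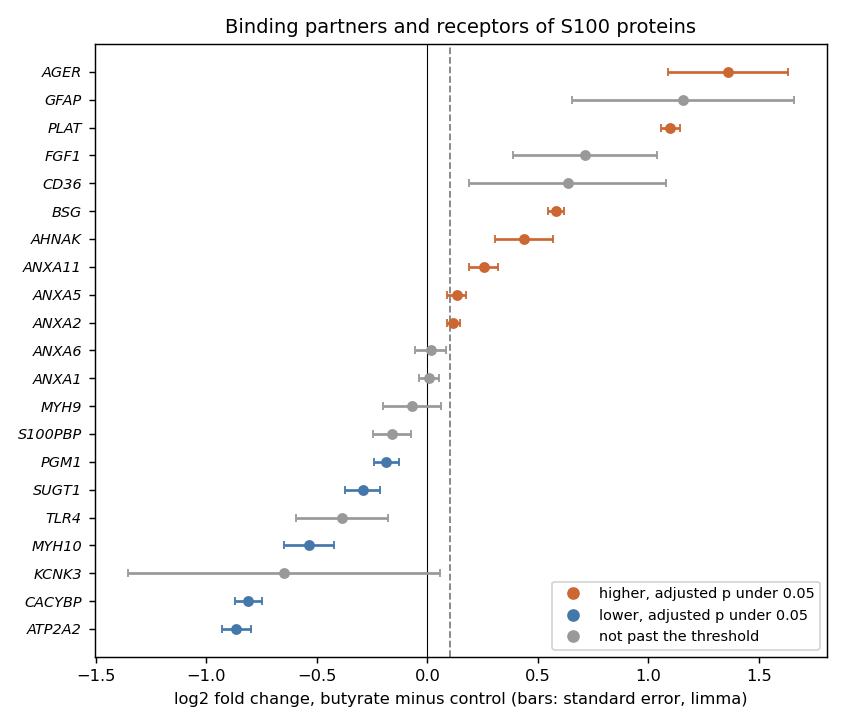
Log2 fold change (butyrate minus control) of tested binding partners and receptors of S100 proteins, with bars for the standard error from limma and a dashed line at the median of all tested genes, 0.10. Colours mark genes called higher, genes called lower and genes past neither side of the threshold, and PLAT at 1.10 and AGER at 1.36 lie far to the right while ANXA1, ANXA2, ANXA6 and MYH9 lie near 0.

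Among the other annexins, 6 of 7 names had a row and 4 were tested. Of these, 2 were called higher and 2 lower, beside 32.5% and 25.9% of all tested genes. ANXA3 fell from 517 ± 11.9 to 207 ± 12.05 FPKM (SD, n = 3; limma, log2 fold change -1.32, adjusted p = 1.69e-07) and ANXA7 by 0.45 on the log2 scale (limma, adjusted p = 0.000401), whereas ANXA4 rose from 60.6 to 104 FPKM (limma, log2 fold change 0.78, adjusted p = 2.28e-06). ANXA9 was listed at 0 in control and at 0.489, 1.11 and 0.932 FPKM with butyrate, so it was tested through the butyrate cultures only. Of 45 other EF-hand names, 39 were tested and 15 were called higher and 17 lower, beside 32.5% and 25.9% of all tested genes. HPCAL4, a neuronal calcium sensor relative, went from between 0.0524 and 0.0867 to between 3.15 and 3.23 FPKM, a log2 fold change of 4.33. Its control cultures were all below the filter of 0.1, so it was tested through the butyrate cultures only and could only be called higher. TESC, CHP2 and EFHD1 rose with log2 fold changes of 3.96, 2.59 and 1.69 (limma, adjusted p = 0.00446, 0.00572 and 0.000383). All 4 were low in control, and with pseudocounts of 1 and 0.01 the log2 fold change went from 1.98 to 5.45 for HPCAL4, from 2.25 to 5.22 for TESC and from 0.78 to 4.77 for CHP2. NCS1, neuronal calcium sensor 1, fell from 20.2 to 6.21 FPKM (limma, log2 fold change -1.69, adjusted p = 1.49e-06).

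The markers of the cell types the cultures could hold moved with butyrate as well. Of 18 epithelial markers, all were tested, 12 were higher and 2 lower (32.5% and 25.9% over all tested genes), and their summed FPKM was 6801 to 7060.0 in control and 9820.0 to 10110.0 with butyrate. Of 14 fibroblast markers, 12 were tested and 11 were higher, beside the same 32.5% of all tested genes. The 14 had a summed FPKM of 5643 to 5908 in control and 8645 to 9357 with butyrate. The largest of them, named after their values were seen, were VIM, FN1 and COL1A1, with control means of 2464, 1217 and 1149. PDGFRA, LUM, COL6A3, PDGFRB and FAP, named likewise, had means below 1 in both groups. COL6A3, 1 of the 11, had a control mean of 0.00657 and was tested through the butyrate cultures only. Of 5 smooth muscle and contractile markers, 1 was higher and 4 were lower, beside the same 32.5% and 25.9%. The 5 had a summed FPKM of 6468 to 6796 in control and of 2849 to 3456 with butyrate. TAGLN, ACTA2 and CNN1 made up nearly all of this sum. MYH11 and DES had control means of 0.662 and 0.367 and butyrate means of 0.0762 and 1.60, all named after their values were seen. Endothelial markers summed to 1.95 to 2.07 FPKM in control and 6.48 to 8.43 with butyrate, and CDH5 was at 0. S100A2 is known from epithelial and S100A4 from mesenchymal cells, and the part of a changed mixture of cells in their levels was not tested.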

How the data were processed

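Total RNA of 6 REPC cultures was sequenced as paired reads. Per the labels, the submitters' processing notes name Trim Galore 0.4.1, STAR, Cufflinks and the build UMD 3.1, and the study used uniquely mapped reads. The authors deposited FPKM per gene for each culture, with a lower and an upper confidence bound whose level is not given in the sources used here. Depth was read from these bounds, taken as 2 standard errors of a count, which gave 5750384 to 6179746 implied fragments in the control and 5797093 to 6141171 in the butyrate cultures, an approximation that covers counting error and read assignment only. Between 16051 and 16193 genes were above 0 in control and between 17306 and 17510 with butyrate.

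Rows were joined by gene ID, name and position, 2 genes with a failed estimate were dropped, and a name on several rows was taken at its highest mean FPKM. Positions are those of the deposited rows, with the start counted from 1, and chromosomes are those most genes of a sequence have in the gene tables of the study. Values of log2(FPKM + 0.1) were fitted with limma 3.58.1 (R 4.3.3, eBayes with trend, no covariate) for the 15813 genes whose mean FPKM reached 0.1. Fold changes on this scale are means of logs with a pseudocount, which mainly shrinks those of low genes but can put them above the ratio of group means where a culture is at or near 0, as for S100A1 (5.47 against 5.16). A call was a Benjamini-Hochberg adjusted p under 0.05 over all tested genes, beside which the thresholds of the study (a log2 fold change beyond 2 and a Bonferroni-adjusted p under 0.05) were counted. The script was tested on simulated data. No count test was applied, as FPKM hold no counts.

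The S100 genes and the lists of partners, annexins, EF-hand proteins, envelope genes and markers were chosen with earlier results of these data known. Every S100 gene with a row is named. From each other list, up to 5 called genes without overlap and with the largest change are named, plus ANXA1, ANXA2, ANXA6, ANXA11, AHNAK, MYH9, CACYBP and AGER, and for the neighbours on chromosome 3 the 3 called genes with the largest change and a name other than a LOC number. LOC618256, the genes listed at 0 and the markers at 0 were named after their values were seen. Some listed genes that the rule names are not reported here. Alternatives were pseudocounts of 0.01 and 1, no filter and a mean FPKM of at least 1, no trend, rescaling to TPM, quantile normalization, median centring, a block for the replicate number, each culture left out in turn and the ratio of group means. The ratio of implied fragments was added after seeing the data.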

Additional observations from a re-analysis of the deposited data

How the results depend on the processing

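For the 9 S100 genes, each log2 fold change kept its direction under every alternative run for it, and its call in each refit (the ratio of implied fragments was not computed for S100A1, which has too few in control). With the thresholds of the study in place of the adjusted p, 1 of these genes in place of 6 was called higher and 0 in place of 3 lower, and of the other listed genes 2 were called higher (S100A5 and HPCAL4) and 0 lower. Of these 2, HPCAL4 was tested through the butyrate cultures only. Implied fragments, added after seeing the data, moved S100A14 to 1.76, S100A16 to -0.16, S100A2 to -0.62 and S100A4 to 0.50. The median log2 fold change of all genes went from 0.10 to 0.24 with TPM, -0.05 with quantile normalization and 0.00 with median centring, and the share of higher genes among all calls from 55.7% to 64.0%, 47.8% and 48.3%. The sign of near-zero values turned in ANXA1 (-0.070 with quantile normalization, -0.094 with median centring, -0.036 to 0.038 with a culture left out), ANXA6 (-0.088 with median centring, -0.028 to 0.074 with a culture left out) and MYH9 (0.052 with TPM, 0.081 with quantile normalization, -0.20 to 0.086 with a culture left out), and the cause was not tested. Without a culture, the log2 fold change of S100A1 ranged from 4.52 to 6.26 and that of S100A13 from 0.97 to 1.31. S100A9 passed the threshold with quantile normalization (limma, adjusted p = 0.029). The replicate numbers mark no shared batch in the labels, and deviations of same-numbered cultures correlated by 0.0228, -0.00431 and 0.00177 across genes. With the replicate block, 31.3% of all genes were called higher and 25.4% lower against 32.5% and 25.9% without it, the S100 counts stayed at 6 and 3, and of the named genes S100A12 lost its call (limma, adjusted p = 0.059). All cultures come from 1 calf, and at 3 cultures a group and few implied fragments, differences in S100A3, S100A8, S100A9 and S100A12 are poorly resolved.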
